A study of Mus musculus with 9 samples.

Results

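The CCL2-CCR2 axis is the chemokine route by which monocytes are drawn out of the bone marrow and into inflamed tissue. It was followed here through 5 genes of the 27998 rows of the count table, taken by name: the ligand genes Ccl2, Ccl7, Ccl8 and Ccl12, and Ccr2, which encodes the receptor. CCL2 (also called MCP-1), CCL7 and CCL12 are secreted proteins that bind CCR2 on the surface of classical monocytes and of some lymphocytes, and CCL8 is a relative that in the mouse acts mainly through another receptor, CCR8. In the liver, resident macrophages (Kupffer cells) fill the sinusoids under normal conditions, and cells that enter through CCR2 can take up residence beside them. The questions asked of these rows were which cell classes held the ligand transcripts, which held the receptor, and how both differed between the groups of mice.

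All mice were on a C57BL/6 background, carried ROSA26-rtTA-IRES-EGFP and were given doxycycline in the food. The drug and the transactivator allele were thus shared by every group, which does not show that the transactivator was made in each. The mice of the 2 WT libraries lacked the YAP transgene and ate doxycycline for 7 days. Those of the 4 YAP3d and 3 YAP7d libraries carried tetYAP and ate it for 3 and 7 days, which switches on an active form of YAP, a transcriptional co-activator of the Hippo pathway. According to the study's methods the mice were crossed with Alb-Cre, which limits the induction to hepatocytes, so the cells that carry the axis were not themselves meant to be induced. Feeding time was thus matched between YAP7d and WT but not between YAP3d and WT. The labels give neither ages nor whether a library was 1 mouse or a pool.

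The 9 libraries of collagenase-treated livers, prepared by the study's methods for cells other than hepatocytes, gave 8527 kept cells with a median of 3231 to 11472 unique molecular identifiers (UMIs, 1 per captured RNA molecule) per cell, and 46 barcodes occurred in more than 1 library. Clusters were formed without the 5 genes and without any other chemokine or chemokine receptor gene, and the cells fell into 12 classes named by the type they resemble, with 44 cells left unnamed. The libraries did not divide by label alone. Transcripts counted under the pseudogene Gm10709 reached 347 and 428 counts per 1000000 UMIs (CPM) in YAP3d replicates 1 and 2 and 363 to 611 CPM in YAP7d, but 4.69 and 11.2 CPM in YAP3d replicates 3 and 4 and 3.65 and 11.0 CPM in WT. Yap1, the induced gene, was at 11.0 and 15.7 CPM in WT and 1.52 to 5.53 CPM in YAP7d, so the counts of the gene do not show its induction. Only 115 kept cells were hepatocyte-like, the class in which the transgene was meant to be switched on.

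The 4 ligand genes lie together on mouse chromosome 11 within 81.2 kb of GRCm38.p6, as protein-coding genes on the RefSeq annotation. Ccl2 spans positions 82035577 to 82037452, Ccl7 82045712 to 82047525, Ccl12 82101845 to 82103399 and Ccl8 82115185 to 82116799, with Ccl11 between Ccl7 and Ccl12. Ccr2 is on chromosome 9, positions 124101918 to 124109140, in a row of chemokine receptor genes with Ccr3 before it. Promoters of 300 bases (250 before and 50 after the start site in the RefSeq table, which for Ccr2 lies downstream of the first base of the span above) are shown for Ccl12 and Ccl8, as ligand genes with transcripts mostly in macrophage-like cells, and for Ccr2, as the gene with a different pattern. They are the plus strand of RefSeq GRCm38.p6, at chr11:82101595-82101894, chr11:82114935-82115234 and chr9:124101933-124102232, and capitals mark a match to any of 4 motifs.
Ccl12: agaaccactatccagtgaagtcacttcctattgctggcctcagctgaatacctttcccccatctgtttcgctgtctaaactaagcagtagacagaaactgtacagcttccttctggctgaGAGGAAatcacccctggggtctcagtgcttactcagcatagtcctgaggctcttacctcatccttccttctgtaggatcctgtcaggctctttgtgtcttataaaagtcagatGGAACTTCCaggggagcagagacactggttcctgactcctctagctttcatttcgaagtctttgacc
Ccl8: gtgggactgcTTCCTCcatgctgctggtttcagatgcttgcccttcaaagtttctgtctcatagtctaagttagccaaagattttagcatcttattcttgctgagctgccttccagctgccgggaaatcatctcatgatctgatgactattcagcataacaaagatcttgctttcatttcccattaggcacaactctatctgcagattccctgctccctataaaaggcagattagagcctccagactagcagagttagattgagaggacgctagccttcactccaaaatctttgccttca
Ccr2: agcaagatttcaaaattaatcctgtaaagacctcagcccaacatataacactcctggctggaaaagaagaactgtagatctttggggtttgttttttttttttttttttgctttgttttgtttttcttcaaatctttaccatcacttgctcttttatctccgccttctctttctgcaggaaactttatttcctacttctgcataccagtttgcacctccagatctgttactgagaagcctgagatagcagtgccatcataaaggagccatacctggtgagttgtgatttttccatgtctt
The motifs searched on both strands were GGNNNTTCC for NF-kB, TGANTCA for AP-1, GGAATG for TEAD (the DNA-binding partner of YAP) and GAGGAA for PU.1 (a factor of myeloid cells), which occurred in 18.5%, 7.81%, 14.7% and 28.3% of 32851 promoters of the same length. Counted from 0 at the start site, Ccl12 held the NF-kB letters at -17 to -9, where the match reads the same motif on both strands, and the PU.1 letters at -130 to -125. Ccl8 held the PU.1 letters on the minus strand at -240 to -235. Within these windows the TEAD and AP-1 letters occurred in none of the 3 promoters, and none of the 4 motifs occurred in that of Ccr2.

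Among the cells captured, in a preparation meant for cells other than hepatocytes, ligand transcripts were concentrated in macrophage-like cells. Of 5883 Ccl2 UMIs, 64.2% lay in the 1051 macrophage-like cells and 22.8% in the 1028 monocyte-like cells, and of 2415 Ccl7 UMIs 88.3% and 4.68% did. Macrophage-like cells also held 92.6% of 216 Ccl8 and 91.8% of 716 Ccl12 UMIs. Averaged over the libraries with at least 10 cells of a class, Ccl2 was at 290.7 ± 165 CPM in macrophage-like cells (SD, n = 9), 111 ± 66.1 in monocyte-like cells (n = 7), 56.9 ± 40.7 in conventional dendritic-like cells (n = 9) and 27.4 ± 24.4 in endothelial-like cells (n = 9). Neighbours in this order overlapped between libraries: macrophage-like values ran from 52.4 to 493 CPM and monocyte-like values from 26.6 to 202 CPM. A small unnamed cluster led by Prg4, Alox15 and Saa3 (22 cells, 15 from WT replicate 2) had a Ccl2 UMI in 13 cells and held 51 of the 430 Ccl2 UMIs of that library. T-like cells, not a usual source of Ccl2, had 2.69 ± 4.71 CPM and a Ccl2 UMI in 2.19% of 1732 cells (exact 95% interval 1.56 to 3.00%), taken here as the background of free RNA, at a median of 4755 UMIs per cell against 13010 in macrophage-like cells. Intervals here and below cover counting error only.

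For Ccl7, which is transcribed next to Ccl2, macrophage-like cells had 152 ± 135 CPM (n = 9) and the next classes 16.6 ± 25.0 (neutrophil-like, n = 4) and 10.2 ± 12.1 (conventional dendritic-like, n = 9). Ccl12 had 47.3 ± 46.7 CPM in macrophage-like cells and at most 1.26 CPM on average in any other class. Ccl8 had 45.5 ± 81.9 CPM there, a mean carried by few cells: 21 of 1051 macrophage-like cells had a Ccl8 UMI, and 10 of them held 189 of the 200 UMIs. The other ligands were spread more widely, with a UMI of Ccl2 in 52.3%, of Ccl7 in 26.7% and of Ccl12 in 17.4% of macrophage-like cells. Of the 281 such cells with a Ccl7 UMI, 85.1% also had a Ccl2 UMI, and of the 550 with a Ccl2 UMI 43.5% had a Ccl7 UMI. The tenth of macrophage-like cells richest in each gene held 46.7% of the class's Ccl2, 54.0% of its Ccl7 and 54.2% of its Ccl12 UMIs, counted among the cells with any.

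The receptor had another distribution, with several classes above background. Ccr2 reached 545 ± 151 CPM in monocyte-like cells (SD, n = 7 libraries), 315 ± 48.4 in conventional dendritic-like cells, 258 ± 73.9 in NK or innate lymphoid-like cells, 183 ± 72.0 in T-like cells (n = 9 each), 174 ± 104 in plasmacytoid dendritic-like cells (n = 4) and 118 ± 58.8 in macrophage-like cells (n = 9). The libraries of adjoining classes in this order overlapped, from monocyte-like (359 to 732 CPM) against conventional dendritic-like (249 to 372 CPM) downward. B-like, endothelial-like and hepatocyte-like cells stayed at 7.21 ± 8.29, 3.11 ± 3.93 and 9.71 ± 10.5 CPM. With each cell thinned to 2000 UMIs, a Ccr2 UMI was found in 50.9 ± 8.76% of monocyte-like cells (n = 6), 41.8 ± 8.38% of conventional dendritic-like, 35.7 ± 17.1% of NK or innate lymphoid-like and 22.5 ± 5.60% of T-like cells, against 1.61 ± 1.67% of B-like and 0.654 ± 0.874% of endothelial-like cells (n = 9 each). Thinning left out 282 WT and 358 YAP3d cells and 0 YAP7d cells. Without thinning the pooled shares were 75.7, 76.7, 57.3, 36.1, 3.09 and 2.62%.

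**Figure D1:**
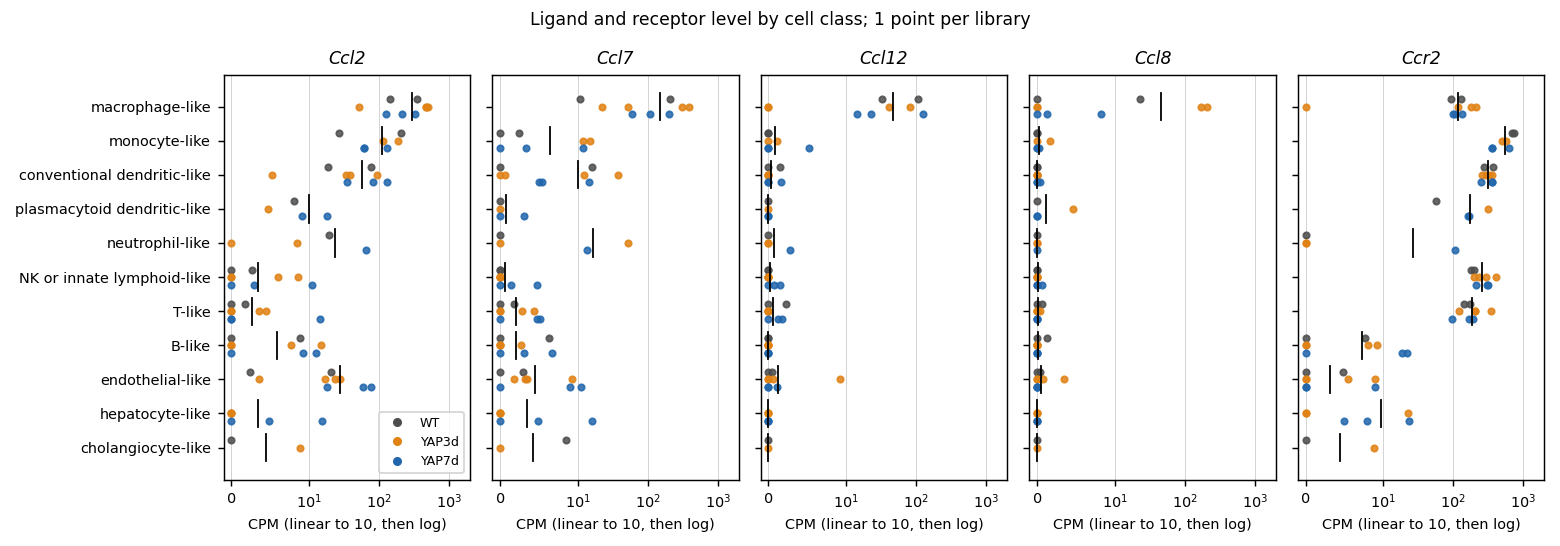
CPM of each gene (x axis, linear up to 10 and logarithmic above) by cell class (y axis), with 1 point for each library with at least 10 cells of the class, coloured by group, and a black bar for the mean over libraries. All 4 ligands have their highest mean in macrophage-like cells, whereas Ccr2 is above 100 CPM on average in 6 classes and highest in monocyte-like cells at 545 CPM.

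Within T-like cells the receptor was unevenly held. The cluster led by Cxcr6, which encodes a homing receptor of liver-resident lymphocytes, had 249 CPM and a Ccr2 UMI in 60.8% of 796 cells, and the cluster led by Lef1, a gene of naive T cells, had 11.6 CPM and 4.35% of 666 cells. Among NK or innate lymphoid-like cells the Klra4-rich cluster had 279 CPM (373 cells) and the other 133 CPM (210 cells). Neutrophil-like cells had 0 Ccr2 UMIs in 8 of 9 libraries (106 cells in all) and 38 UMIs in 15 of 49 cells of YAP7d replicate 3. The 2 monocyte-like clusters both carried the receptor: 526 CPM and 94.3% of 460 cells in the cluster with F13a1 and Hp among its leading genes, where classical monocyte markers summed to 20118 CPM, and 296 CPM and 60.6% of 568 cells in the cluster with Ace and Eno3 among them, where they summed to 10482 CPM and non-classical markers were higher (2103 against 861 CPM).

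Macrophage-like cells fell into clusters with and without the receptor. The list of Kupffer cell markers summed to 18753 and 16023 CPM in 2 macrophage-like clusters (Kupffer-high, 615 cells) and to 2268 CPM in the third (Kupffer-low, 436 cells, led by C1qa, C1qc and C1qb), a division made after the data were seen. C1qa and C1qc were also among the leading genes of both Kupffer-high clusters. Those of the Kupffer-low cluster included Cd5l and Fabp7 of the Kupffer list, and Cd207 and Cx3cr1, which led neither Kupffer-high cluster. Kupffer-high cells had 8.42 ± 6.43 CPM of Ccr2 (SD, n = 9 libraries), a level beside those of B-like and hepatocyte-like cells, and Kupffer-low cells had 386 ± 151 CPM (n = 6), with 195 to 612 CPM in single libraries. In the 8 libraries with any Ccr2 UMI in macrophage-like cells, Kupffer-low cells held 85.4 to 100% of those UMIs. Both held the ligands. Ccl2 was at 254 ± 179 CPM in Kupffer-high and 492 ± 340 CPM in Kupffer-low cells, Ccl7 at 136 ± 148 and 309 ± 224 CPM, and Ccl12 at 28.1 ± 29.8 and 159 ± 158 CPM, with overlap between libraries in each case. In the 6 libraries with at least 10 cells of both, Ccl2 was higher in the Kupffer-low cells in 5, the exception being YAP3d replicate 2 (332 against 519 CPM). Because clusters are made from the same cells, these differences are a description without a test.

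Receptor and ligand met in the same cells in some clusters and not in others. A UMI of Ccr2 and one of any ligand were both present in 225 of 436 Kupffer-low cells (51.6%) and in 48 of 615 Kupffer-high cells (7.80%). Among monocyte-like cells the F13a1-led cluster had both in 214 of 460 cells (46.5%) and the Ace-led cluster in 127 of 568 (22.4%). Conventional dendritic-like cells had both in 20.6%, T-like cells in 1.56%, endothelial-like cells in 0.359% and B-like cells in 0.0858%. Depth per cell was not equal between these classes, with medians of 16737 UMIs in Kupffer-low, 11137 in F13a1-led monocyte-like and 4755 in T-like cells.

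**Figure D2:**
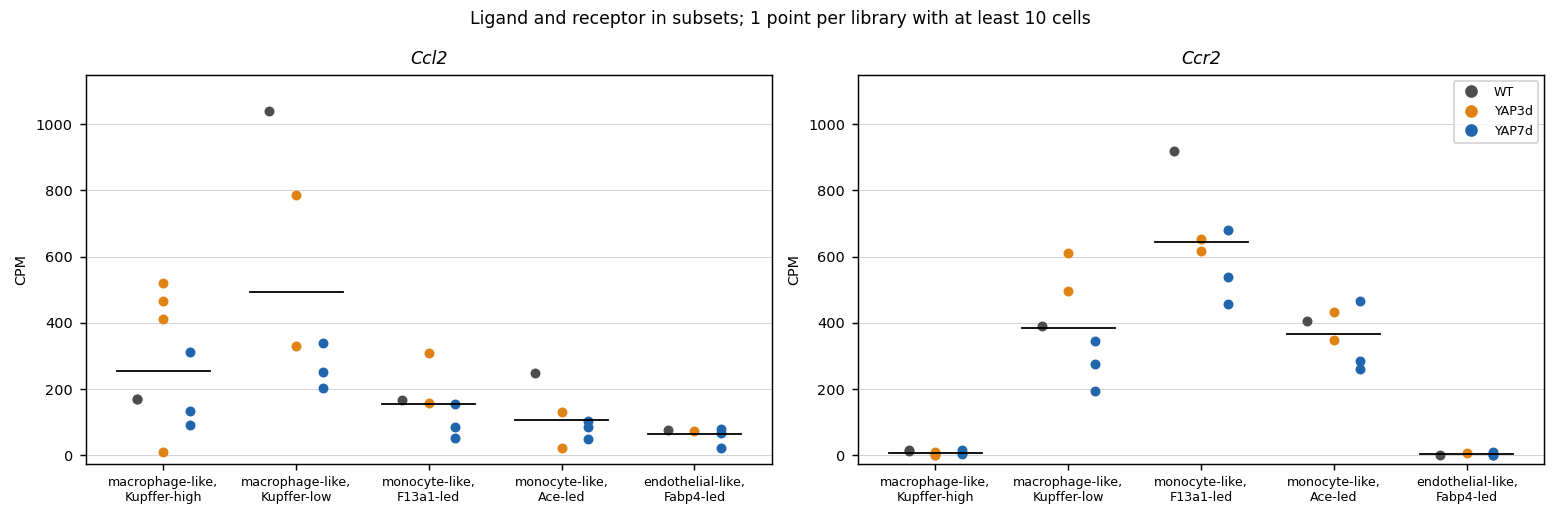
Ccl2 (left) and Ccr2 (right) in CPM (y axis) in 2 macrophage-like, 2 monocyte-like and 1 endothelial-like subset (x axis), with 1 point per library with at least 10 cells of the subset and a bar for their mean. Kupffer-high cells carry Ccl2 at 254 CPM and Ccr2 at 8.42 CPM on average, and Kupffer-low cells carry both, at 492 and 386 CPM.

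Over all cells of a library Ccl2, Ccl7 and Ccl12 were higher in the YAP7d libraries than in both WT libraries, without passing the test, and Ccl8 was not. Ccl2 was at 10.4 and 58.6 CPM in WT, at 34.9, 151, 7.63 and 40.7 CPM in YAP3d replicates 1 to 4, and at 146, 90.6 and 127 CPM in YAP7d replicates 1 to 3. The YAP7d libraries lay above both WT libraries, and YAP3d replicate 2 lay above all of them. On the log2 scale YAP7d exceeded WT by 1.90 (SE 0.971, edgeR adjusted p 0.189). Ccl7 was at 0.522 and 19.4 CPM in WT, 8.53, 78.3, 2.35 and 16.1 CPM in YAP3d, and 81.6, 38.9 and 47.1 CPM in YAP7d, and the fitted difference was 2.40 on the log2 scale (SE 1.17, edgeR adjusted p 0.169). Ccl12 was at 2.09 and 8.04 CPM in WT, 0, 15.9, 0 and 1.91 CPM in YAP3d and 49.9, 8.89 and 10.3 CPM in YAP7d, with a fitted log2 difference of 2.08 (SE 1.20, edgeR adjusted p 0.240). For Ccl8 both groups were near the floor, with 0 and 16 UMIs in WT and 3, 0 and 81 in YAP7d, beside 13, 0, 0 and 103 in YAP3d, and the fitted log2 difference was 0.36 (SE 1.59, edgeR adjusted p 0.898). These values rest on single libraries: without WT replicate 2 they were 3.76 for Ccl2, 6.90 for Ccl7, 3.61 for Ccl12 and 6.55 for Ccl8, without WT replicate 1 the Ccl2, Ccl7 and Ccl8 values were 1.18, 1.64 and -0.26, without YAP7d replicate 1 that of Ccl12 was 1.001, and without YAP7d replicate 3 that of Ccl8 was -2.15.

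Ccr2 was at 110 and 126 CPM in WT, 206, 263, 140 and 106 CPM in YAP3d and 193, 162 and 208 CPM in YAP7d. All YAP7d values exceeded both WT values, and YAP3d spanned the whole range. The log2 fold change between YAP7d and WT was 0.85 (SE 0.352, edgeR adjusted p 0.113), and with only these groups fitted it was 0.82 (edgeR adjusted p 0.0442). No member passed between YAP7d and WT, where 18.1% of 12071 genes did, nor between YAP7d and YAP3d, where 16.5% did. Without YAP3d replicate 2, Ccl2, Ccl7 and Ccl12 passed between YAP7d and YAP3d (log2 fold changes 2.21, 2.51 and 4.15, edgeR adjusted p 0.0247, 0.0279 and 0.00862), and Ccr2 passed between YAP7d and WT (0.85, edgeR adjusted p 0.0471). Over all cells 0 of 12071 genes passed between YAP3d and WT with edgeR, with 358 at an unadjusted p under 0.05, and 16 passed with DESeq2. With a term for libraries rich in Gm10709 the differences between YAP7d and WT were -0.06 for Ccr2, 0.11 for Ccl2, 0.39 for Ccl7, -0.49 for Ccl12 and 0.71 for Ccl8 (edgeR adjusted p 0.955 to 0.993). That term is set by the YAP3d libraries alone, since all YAP7d libraries were rich in Gm10709 and both WT libraries were not, and between YAP7d and WT it cannot be told apart from the group.

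These sums follow the make-up of a library as well as the level per cell, and in a sum the 2 cannot be told apart. Macrophage-like cells made up 5.95 and 4.80% of the cells in WT, 4.27, 11.8, 7.11 and 3.25% in YAP3d and 24.9, 45.3 and 22.7% in YAP7d. The difference of means was 25.6 percentage points between YAP7d and WT (exact two-sided permutation p 0.1, the smallest this design allows) and 24.4 between YAP7d and YAP3d (exact permutation p 0.0286, likewise the smallest). Monocyte-like cells made up 1.92 and 4.17% in WT, 2.14, 20.6, 1.66 and 2.90% in YAP3d and 18.5, 7.59 and 34.6% in YAP7d (17.2 points over WT, exact permutation p 0.2). When every class was held at its mean level over all libraries and only the make-up was allowed to differ, Ccl2 came to 43.2 ± 9.23 CPM in WT (n = 2) and 161 ± 29.0 CPM in YAP7d (n = 3), a ratio of 3.74, where the observed means of 34.5 and 121 CPM gave 3.51. The same ratios were 5.63 and 5.62 for Ccl7, 6.32 and 4.55 for Ccl12, and 1.77 and 1.59 for Ccr2. For Ccl8 they were 7.09 from the make-up and 1.15 observed. These are ratios of group means, and single libraries lay far from the make-up value: Ccl7 was observed at 0.522 CPM against 11.2 CPM from the make-up in WT replicate 1 and at 38.9 against 96.7 CPM in YAP7d replicate 2, Ccl2 at 10.4 against 36.7 CPM in WT replicate 1, and Ccl12 at 49.9 against 18.9 CPM in YAP7d replicate 1. With 10.4 and 58.6 CPM of Ccl2 and 0.522 and 19.4 CPM of Ccl7 in the WT libraries, the observed ratios depend on which WT library is used. The levels held fixed were averaged over the same libraries, so the 2 sets of values are not independent.

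**Figure D3:**
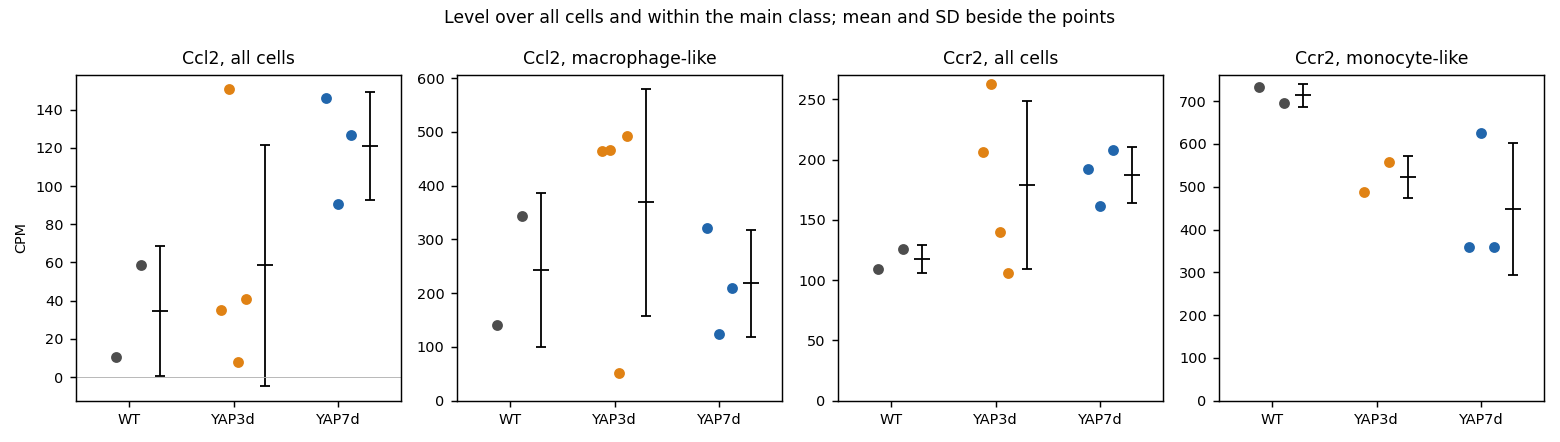
CPM (y axis) by group (x axis) for Ccl2 over all cells and in macrophage-like cells, and for Ccr2 over all cells and in monocyte-like cells, with 1 point per library and the mean and SD to the right of each group. Over all cells the YAP7d libraries lie above the WT libraries for both genes, within macrophage-like cells the Ccl2 values of the groups overlap, and within monocyte-like cells Ccr2 is lower in YAP7d (359, 627 and 360 CPM) than in WT (732 and 695 CPM).

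Within macrophage-like cells the ligand levels of the groups overlapped. Ccl2 was at 142 and 344 CPM in WT, 465, 465, 52.4 and 493 CPM in YAP3d and 322, 124 and 210 CPM in YAP7d, and Ccl7 was at 10.9 and 211, at 51.7, 394, 22.4 and 308, and at 203, 59.5 and 108 CPM. None of the 5 members passed between YAP7d and WT, where 1.59% of 6723 genes did. The log2 fold changes were -0.29 for Ccl2 (SE 0.564), -0.22 for Ccl7 (SE 0.751), -0.71 for Ccl12 (SE 0.813), -2.08 for Ccl8 (SE 1.61) and 0.10 for Ccr2 (SE 0.515), with edgeR adjusted p of 0.531 or more. Leaving out single libraries moved the Ccl2 value between -0.69 and 0.65, the Ccl7 value between -0.81 and 3.51, that of Ccl12 between -2.12 and 0.70 and that of Ccl8 between -4.67 and 6.07, and each turned its direction, with the highest value in each case that without WT replicate 2. Ccl8 passed with the replicate block (-4.11, edgeR adjusted p 0.0448) and without a filter on low counts (-1.94, edgeR adjusted p 0.0481). In Kupffer-high cells alone Ccl2 differed by 0.00 (SE 0.667) and Ccl7 by 0.33 (SE 0.775). Different clusters held the class in different libraries: 1 Kupffer-high cluster held 47 of 68 macrophage-like cells in WT replicate 2 and 59 of 83 in YAP3d replicate 4 but 0 in YAP7d, and the other held 24 of 31 in WT replicate 1.

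The Kupffer-low share of macrophage-like cells was 9.68% (3 of 31 cells, exact 95% interval 2.04 to 25.8%) and 16.2% (8.36 to 27.1%) in WT. It was 0, 21.2, 16.7 and 15.7% in YAP3d, and 37.6% (29.8 to 45.9%), 31.6% (25.3 to 38.3%) and 65.0% (60.2 to 69.6%) in YAP7d. All YAP7d libraries lay above the other 6. The share of all macrophage-like cells with a Ccr2 UMI, at 2000 UMIs per cell, was 13.3 and 10.6% in WT, 14.6, 18.8 and 10.1% in YAP3d replicates 2 to 4 and 16.1, 18.7 and 21.6% in YAP7d, where YAP3d replicate 3 lay within the YAP7d range. Within the Kupffer-low cells the level of Ccr2 was lower in YAP7d than in the other 3 libraries that could be read: it was 391 CPM in WT replicate 2, 612 and 497 CPM in YAP3d replicates 2 and 4, and 276, 344 and 195 CPM in YAP7d. The remaining libraries had 5 or fewer such cells. Median depth differed with the group, at 1777 to 7103 UMIs per macrophage-like cell in WT and YAP3d and 9132 to 22210 in YAP7d, and its part in these values was not tested.

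In monocyte-like cells Ccr2 was at 732 and 695 CPM in WT, 488 and 557 CPM in YAP3d replicates 2 and 4, and 359, 627 and 360 CPM in YAP7d. Both WT values lay above all others, but the WT sums rest on 55 and 282 UMIs, and the log2 difference of -0.67 (SE 0.284) had an unadjusted p of 0.0346 and an edgeR adjusted p of 0.605. In the F13a1-led cluster WT replicate 2 had 918 CPM (29 cells) and YAP7d had 540, 681 and 457 CPM, and in the Ace-led cluster these values were 407 CPM and 286, 465 and 262 CPM. Ccl2 in monocyte-like cells was at 26.6 and 202 CPM in WT and at 60.3, 60.5 and 129 CPM in YAP7d, a log2 difference of -0.67 (SE 0.516, edgeR adjusted p 0.835) that turned to 1.93 without WT replicate 2. No member passed in this class, in which 0.13% of 6156 genes did. At 2000 UMIs per cell a Ccr2 UMI was found in 52.5% of monocyte-like cells in WT replicate 2, in 54.5 and 47.3% in YAP3d replicates 2 and 4, and in 44.1, 65.7 and 41.4% in YAP7d, which overlap. Summed over monocyte-like and macrophage-like cells together, Ccr2 differed by -0.99 between YAP7d and WT (SE 0.268, unadjusted p 0.00230, edgeR adjusted p 0.103). The make-up of these sums differed, since macrophage-like cells, with less Ccr2, held 4.79 and 7.17% of a library's UMIs in WT beside 3.92 and 5.53% in monocyte-like cells, and 39.3, 62.6 and 37.6% beside 15.4, 6.75 and 29.2% in YAP7d.

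Among lymphocytes, Ccr2 in NK or innate lymphoid-like cells was at 178 and 195 CPM in WT, 290, 195, 402 and 235 CPM in YAP3d and 302, 313 and 212 CPM in YAP7d. The YAP7d and WT values did not overlap, and the log2 difference of 0.68 (SE 0.282, edgeR adjusted p 0.188) did not pass in a class where 3.88% of 5562 genes did. The Klra4-rich cluster, richer in Ccr2, held 12 of 26 and 38 of 81 of these cells in WT and 80 of 87, 31 of 31 and 120 of 143 in YAP7d, and within it the values were 288 and 221 CPM in WT and 318, 313 and 236 CPM in YAP7d. In T-like cells Ccr2 differed by -0.06 (SE 0.321) where 0.132% of 6038 genes passed, and in conventional dendritic-like cells by -0.11 (SE 0.232) where edgeR called 0% of 4006 genes, with 330 at an unadjusted p under 0.05 and 54 called by DESeq2. In B-like cells, where 0.0448% of 2233 genes passed, no member had enough counts to be tested. Shares of cells with a UMI at equal depth gave 51 further tests over the members, classes and comparisons, with an adjusted p of 1.0 in each (exact permutation tests). With 2 WT libraries p could not fall below 0.1 between YAP7d and WT, so a difference there could not have passed. The lowest unadjusted p was 0.0286, for Ccl2 in endothelial-like cells between YAP7d and YAP3d.

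The transcripts of each library were also divided among its classes. Myeloid classes held 69.2 to 99.0% of the Ccl2 UMIs of each library, averaging 81.9 ± 11.5% over the 2 WT, 81.0 ± 12.4% over the 4 YAP3d and 97.2 ± 1.61% over the 3 YAP7d libraries, and an exact permutation test over the 3 groups gave an adjusted p of 0.222 over the 5 genes. For Ccr2 the means were 59.5 ± 6.76%, 57.5 ± 18.2% and 81.0 ± 10.3% (exact permutation test, adjusted p 0.222). Macrophage-like cells held 5.71 and 5.21% of the Ccr2 UMIs in WT and 20.4, 41.5 and 23.9% in YAP7d, whereas T-like cells held 37.1 and 25.7% in WT and 10.3, 7.29 and 3.09% in YAP7d. These shares follow the number of cells as well as the level per cell. Macrophage-like cells made up a mean of 5.38% of cells in WT and 31.0% in YAP7d. Within neither class did Ccr2 pass between YAP7d and WT. YAP3d replicate 2 was nearest to YAP7d replicate 3, with 56.7% of its Ccr2 UMIs in monocyte-like cells, and in the other YAP3d libraries T-like cells held 24.0 to 49.6%.

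**Figure D4:**
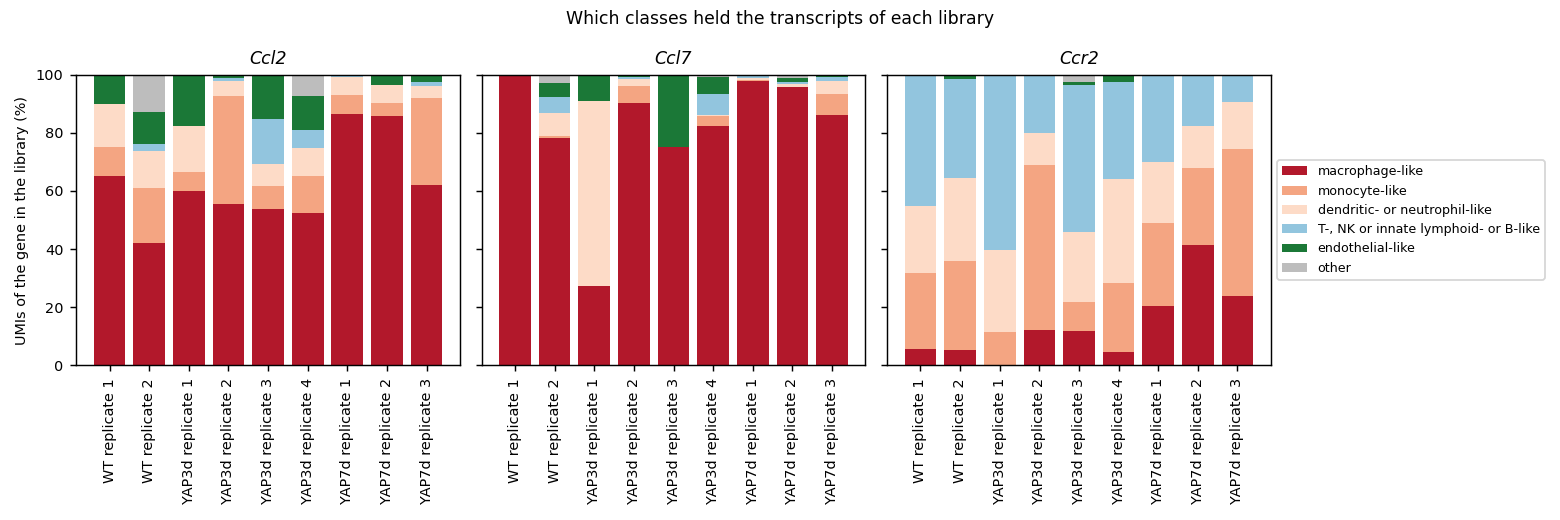
Percentage of the UMIs of Ccl2, Ccl7 and Ccr2 in each library (y axis) held by each cell class (colours), with 1 bar per library (x axis). Macrophage-like cells hold 42.1 to 86.5% of Ccl2 in every library, and for Ccr2 they hold 20.4 to 41.5% in YAP7d and at most 12.3% in the other libraries.

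Endothelial-like cells were the 1 class in which a member passed. Ccl2 was at 2.36 and 20.3 CPM in WT, 27.8, 23.1, 3.60 and 16.7 CPM in YAP3d and 18.1, 58.6 and 75.8 CPM in YAP7d, resting on 2 to 68 UMIs per library. YAP7d replicate 1 lay among the WT and YAP3d libraries and the other 2 lay above them. The log2 fold change was 2.14 between YAP7d and WT (SE 0.599, edgeR adjusted p 0.0214) where 17.9% of 7507 genes passed, and 1.92 between YAP7d and YAP3d (edgeR adjusted p 0.0241) where 16.9% did. The first call was lost without YAP7d replicate 3 (1.53, edgeR adjusted p 0.237) and with the Gm10709 term (1.22, edgeR adjusted p 0.609). It was also lost without WT replicate 1 (1.54), and without WT replicate 2 the value was 4.56, each with 1 WT library left. The second was lost without YAP7d replicate 3 (1.27), without YAP3d replicate 3 (1.59) or replicate 4 (2.03), and with the Gm10709 term (1.26). Among the libraries rich in Gm10709, with YAP3d replicates 3 and 4 left out, it was 1.25 (edgeR adjusted p 0.299).

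The endothelial-like class was made up of different cells in the groups. A cluster led by Fabp4 and Egfl7 held 0.362 and 3.39% of the endothelial-like cells in WT, 1.33 to 3.92% in YAP3d and 70.8, 78.3 and 89.1% in YAP7d. The rest, in clusters led by Clec4g or Ptprb and called sinusoidal below, numbered 7, 5 and 7 cells in YAP7d. In the Fabp4-led cluster Ccl2 was at 78.0 CPM in WT replicate 2 (6 UMIs in 17 cells), 73.5 CPM in YAP3d replicate 4 (9 UMIs in 22 cells) and 21.7, 67.5 and 79.8 CPM in YAP7d (4, 13 and 67 UMIs). In the sinusoidal clusters it was at 2.39 and 18.3 CPM in WT and at 3.73 to 28.1 CPM in YAP3d, and in the few such cells of YAP7d at 0, 0 and 17.3 CPM (0, 0 and 1 UMI). With 1 WT library of at least 10 such cells the cluster could not be fitted alone. Transcripts of other cells were also counted in this class. Ccr2 had 0, 0 and 8 UMIs in YAP7d, 0 and 11 in WT and 0, 0, 3 and 33 in YAP3d. The monocyte gene Chil3 and the Kupffer genes Fabp7 and Cd5l rose in the same sums between YAP7d and WT, by 3.97, 2.52 and 2.17 on the log2 scale. Scaled by C1qa, C1qb, C1qc and Cd5l, the Ccl2 UMIs that would go with macrophage RNA were 1.12 of 2 and 11.3 of 47 in WT, 0.498 of 8, 5.32 of 5, 0.726 of 2 and 28.8 of 62 in YAP3d and 1.48 of 4, 0.451 of 13 and 8.47 of 68 in YAP7d. Endothelial-like cells without a UMI of these 4 genes held 1 and 3 Ccl2 UMIs in WT (206 and 81 cells), 6, 2, 1 and 5 in YAP3d (54, 20, 103 and 154 cells) and 0 in YAP7d, where only 2, 2 and 0 cells were of this kind. The part of such RNA in the Ccl2 difference was not tested.

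**Figure D5:**
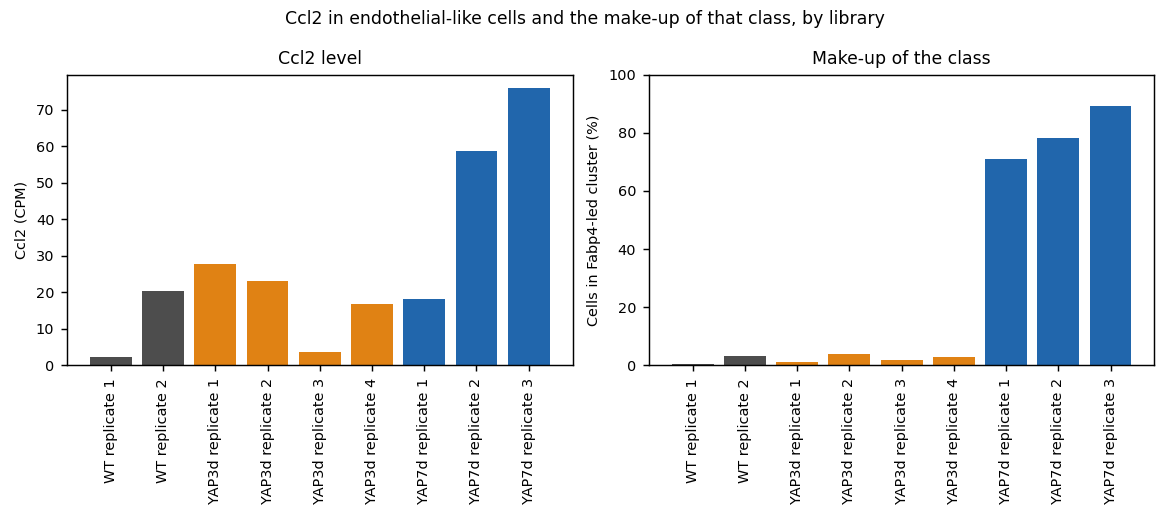
Ccl2 in endothelial-like cells in CPM (left, y axis) and the percentage of those cells that fell into the Fabp4-led cluster (right, y axis), for each library (x axis, bars coloured by group). Both are highest in YAP7d replicate 3, at 75.8 CPM and 89.1%, and YAP7d replicate 1 has 70.8% of its cells in the cluster at 18.1 CPM.

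Other chemokine receptors and scavengers, not all of them known to bind these ligands, were examined as a list of 8 genes. Over all cells 1 of 7 tested rose and 3 fell between YAP7d and WT (18.1% of all genes passed). The atypical receptors Ackr1, Ackr2 and Ackr4, which bind chemokines without signalling and clear or present them, fell by 5.25 (SE 0.706), 2.17 (SE 0.504) and 5.92 (SE 0.887) on the log2 scale (edgeR adjusted p 0.00431, 0.0178 and 0.00449), and Ccr3, a receptor of eosinophils that can bind CCL7, rose by 4.81 (SE 1.02, edgeR adjusted p 0.0133). Of the 6 classes read for Ccr3 its level was highest in macrophage-like cells, at 10.5 ± 14.8 CPM in the 2 WT, 82.6 ± 60.5 CPM in the 4 YAP3d and 107 ± 85.5 CPM in the 3 YAP7d libraries, with means of at most 4.42 CPM in the others. Macrophage-like cells made up a mean of 5.38% of cells in WT and 31.0% in YAP7d. Ackr1, Ackr2 and Ackr4 were highest in endothelial-like cells among these classes. Endothelial-like cells held 44.1 and 31.5% of the UMIs of the WT libraries and 3.58 to 5.33% of those of YAP7d. The part of this smaller share in the 3 falls over all cells was not tested. With the Gm10709 term the values were -4.52, -0.83, -3.85 and 4.51 for Ackr1, Ackr2, Ackr4 and Ccr3, none of which passed (edgeR adjusted p 0.262, 0.680, 0.270 and 0.392), and the Ccr3 call was also lost without WT replicate 1 (4.27, edgeR adjusted p 0.0772). Within endothelial-like cells Ackr1 had 60.3 ± 35.1 CPM (SD, n = 2) in WT and fell to 11.2 ± 11.3 CPM (n = 3) at 7 days (-2.39 on the log2 scale, edgeR adjusted p 0.00396) and Ackr4 from 46.2 ± 8.55 to 5.24 ± 4.68 CPM (-2.87, edgeR adjusted p 0.000957). Ackr2 was at 18.6 ± 2.96 and 33.7 ± 11.3 CPM there. With the Gm10709 term the endothelial-like Ackr4 call was lost (-1.99, edgeR adjusted p 0.134). These falls moved with the smaller share of sinusoidal clusters in the class, whose part was not tested.

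Ccr1, a receptor of CCL7 and CCL8 among others that is encoded near Ccr2 on chromosome 9, did not pass over all cells, in macrophage-like cells or in monocyte-like cells. In macrophage-like cells it was at 3.80 ± 5.37 CPM in WT against 22.3 ± 32.1 at 3 days and 49.2 ± 2.13 at 7 days (difference 2.92 on the log2 scale, SE 0.904, edgeR adjusted p 0.0985), and it passed there without YAP3d replicate 2 (edgeR adjusted p 0.0186), without YAP3d replicates 3 and 4 together, without a filter on low counts, with only the 2 groups compared and with the replicate block. Without WT replicate 2 the value was 9.56 (edgeR adjusted p 0.533). Over all cells (1.76, edgeR adjusted p 0.0640) it passed with DESeq2 (adjusted p 0.0146), without a filter, with only the 2 groups compared and without YAP3d replicate 2.

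Among 11 other chemokines and growth factors of monocytes and macrophages, 4 of 9 tested rose and 1 fell over all cells, where 18.1% of all genes passed, with a median log2 fold change of 0.94 beside -0.02 for all genes. Cx3cr1, the receptor of fractalkine on patrolling monocytes and resident macrophages, was at 11.2 ± 9.87 CPM in WT against 35.8 ± 38.0 at 3 days and 115 ± 27.8 at 7 days (a rise of 3.38 on the log2 scale, SE 0.898, edgeR adjusted p 0.0288). It also rose within macrophage-like cells, from 22.8 ± 32.2 to 183 ± 40.8 CPM (2.38, SE 0.584, edgeR adjusted p 0.0496), a call lost in 10 of its alternatives, among them leaving out WT replicate 1 (1.98) or WT replicate 2 (11.5), leaving out doublets and a finer clustering, and within monocyte-like cells it differed by 0.26 (SE 0.389). Cx3cr1 was among the 10 leading genes of the Kupffer-low cluster and not of the Kupffer-high clusters. The Kupffer-low share of macrophage-like cells was 9.68 and 16.2% in WT and 31.6 to 65.0% in YAP7d. The part of this make-up in the rise of Cx3cr1 within macrophage-like cells was not tested. Ccl24 and Ccl9, chemokines made by macrophages, rose by 2.99 and 2.63 over all cells (edgeR adjusted p 0.0116 and 0.0302). Csf1, the growth factor on which monocytes and macrophages depend, fell from 28.8 ± 6.45 to 3.28 ± 0.956 CPM over all cells (-2.96, edgeR adjusted p 0.00431) and from 63.0 ± 9.61 to 23.6 ± 9.52 CPM in endothelial-like cells (-1.08, edgeR adjusted p 0.0367). Endothelial-like cells held 44.1 and 31.5% of the UMIs of the WT libraries and 3.58 to 5.33% of those of YAP7d. Its part in the fall over all cells was not tested. Over all cells none of these calls passed with the Gm10709 term, where Csf1 differed by -2.77 and Cx3cr1 by 1.83, and those of Cx3cr1 and Ackr2 were also lost when either WT library or YAP7d replicate 2 was left out, that of Cx3cr1 also without YAP7d replicate 3. The call of Csf1 in endothelial-like cells was lost, with values of -0.92 to -1.54, when either WT library, YAP7d replicate 1 or YAP7d replicate 2 was left out, with DESeq2 (adjusted p 0.0735), the replicate block, the Gm10709 term and doublets left out, and the endothelial-like Ackr1 call was lost without WT replicate 2 (-1.58, edgeR adjusted p 0.0859). In the same endothelial-like sums Ccl9 and Ccl6 rose by 2.84 and 1.79, while Slc40a1 and Id3 of the Kupffer list, which endothelial cells also express, fell by 1.62 and 1.04.

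Of 20 genes of CCR2 signalling and adhesion (G proteins, arrestins and integrins) 1 fell over all cells, Arrb1 (-1.83, edgeR adjusted p 0.00503), where 18.1% of all genes passed. None of the 18 tested passed in macrophage-like or monocyte-like cells (edgeR, YAP7d minus WT), where 1.59 and 0.13% of all genes did, with medians of 0.20 and 0.07 beside 0.02 for all genes in each. In endothelial-like cells, where 17.9% of all genes passed, 2 of 13 tested did, Arrb1 and Gnb1, which fell by 0.85 and 0.50 on the log2 scale. Of 21 inducers of the ligands and genes of the NF-kB response, 1 rose over all cells, Csf1r (1.86), beside 18.1% of all genes called. In endothelial-like cells 2 of 18 tested fell, Nfkbiz and Irf1 (-1.43 and -1.10), beside 17.9%, and in monocyte-like cells none of 20 passed, beside 0.13%. The list's median was -0.76 in monocyte-like and -0.55 in macrophage-like cells, beside 0.02 for all genes in each. Ccl2 is also among the genes that enzymatic dissociation can raise. In macrophage-like cells 1 of 17 tested dissociation genes fell (Dnajb1, -1.93), beside 1.59% of all genes called, with a median of -1.04 against 0.02 for all genes, and their summed level was 8377 and 15049 CPM in WT, 6128 to 15317 CPM in YAP3d and 7401, 6431 and 6513 CPM in YAP7d. In endothelial-like cells, where 17.9% of all genes passed, 12 of 18 fell, led by Hspa1b, Hspa1a, Egr1 and Fosb (-4.66, -3.57, -2.17 and -2.08), while Ccl2 rose. The part of dissociation in the ligand levels was not tested.

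Markers of macrophages and monocytes were read beside the members. Over all cells, where 18.1% of all genes passed and their median was -0.02, 7 of 12 Kupffer markers rose (median 1.85), among them Fabp7, Cd5l, Timd4 and Vsig4 by 4.19, 2.85, 2.39 and 2.07, and 0 of 11 classical and 1 of 7 non-classical monocyte markers did (Adgre4, 2.20), with medians of 1.65 and 2.01. None of these calls held with the Gm10709 term. Within macrophage-like and within monocyte-like cells 0 members of these 3 lists passed with edgeR, where 1.59 and 0.13% of all genes did. The genes most like Ccr2 in their pattern, by Pearson's r of log2(CPM + 10) over 62 sums of a class in a library (10 classes, 5798 genes compared), were Fam105a (0.90), Abracl (0.84), S100a4 (0.83), Itgb2 (0.83) and Fyb (0.83). Among those most like Ccl2 were Axl (0.88), Aif1 (0.88), Treml4 (0.87) and Csf1r (0.86). Among the members, Ccl7 and Ccl12 were nearest to each other (0.89), Ccl2 had an r of 0.78 with Ccl7 and 0.68 with Ccl12, and Ccr2 had 0.28 with Ccl2 and 0.13 with Ccl7. The sums of a class share its base level and those of a library share its depth, so these values describe the pattern only.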

How the data were processed

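Single-cell libraries of whole liver fell into 2 WT, 4 YAP3d and 3 YAP7d samples, and each was put in its group by its title. The table holds raw UMI counts per gene and cell, deposited by the authors without normalization. The submitters' processing notes name Cell Ranger, Seurat version 2 and the build mm10, and filters on cells are not given in the sources used here. No column of another sample was present (0 columns). Cells with at least 200 detected genes were kept (35 of 8562 were removed), giving 1288940 to 25056881 UMIs per library. Counts were clustered with scanpy 1.11.5 (2500 variable genes, 30 components, Leiden resolution 1) without any chemokine or chemokine receptor gene, and a cluster was named where at least 3 markers of a type were raised. Of the kept cells, 65 (0.759%) were called doublets by Scrublet and stayed in.

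Counts were summed per library, or per library and class with at least 10 cells, and tested with edgeR 4.0.16 in R 4.3.3 (quasi-likelihood test, filterByExpr, TMM, Benjamini-Hochberg adjustment over all genes tested, threshold 0.05), after the procedure was tested on simulated data. SE is that of the log2 fold change. Shares of cells were compared with two-sided exact permutation tests over libraries, and shares of cells with a UMI carry exact Clopper-Pearson 95% intervals. A class was tested where every group kept 2 libraries. Nothing in the labels says more of the replicates than that they are separate samples, so p-values measure the spread between these libraries. The alternatives were DESeq2 1.42.0, RLE scaling, no filter, only the groups compared, the replicate number as a block, a Gm10709 term, other cell filters, resolutions, class sizes and thinning depths, and leaving out each library. Leaving out a WT library leaves no spread within WT, so calls in such a fit rest on the spread within the other groups. The 5 members and the gene lists were chosen with earlier results of these data known. Beyond the members, the text names genes among the 5 nearest to Ccl2 and Ccr2 in pattern, at most 4 called genes per list, class and comparison, and Ccr1, Ackr1, Cx3cr1, Csf1 and Yap1. Ackr2 in endothelial-like cells, cluster-leading genes and the division of macrophage-like cells were added after their values were seen. Results of a few genes of these lists are not reported here. Gene positions and promoters came from RefSeq GRCm38.p6, and promoter sequences of 3 of the 5 members were used, with none used here for Ccl2 and Ccl7.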

Additional observations from a re-analysis of the deposited data

Results flagged for a closer look

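In the 20 groups of 4 libraries checked for a library far from the others, 3 were marked, where chance alone marks about 1 in 20. Over all cells Ccl12 was at 15.9 CPM in YAP3d replicate 2, against 0, 0 and 1.91 CPM in the other YAP3d libraries. The monocyte-like share of the same library was 20.6% of its cells, against 1.66 to 2.90% in the other YAP3d libraries. Ccl2 in macrophage-like cells was at 52.4 CPM in YAP3d replicate 3, against 465 to 493 CPM in the other YAP3d libraries, resting on 7 UMIs in 30 cells. Ccr2 passed in neither of 2 classes in which the differences had opposite signs: the log2 difference between YAP7d and WT was 0.68 in NK or innate lymphoid-like cells (edgeR adjusted p 0.188) and -0.67 in monocyte-like cells (edgeR adjusted p 0.605), with no overlap between the YAP7d and WT libraries in either class. The Ccr2-richer Klra4-rich cluster held 12 of 26 and 38 of 81 NK or innate lymphoid-like cells in WT and 80 of 87, 31 of 31 and 120 of 143 in YAP7d. The difference between these classes was not tested.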

How the results depend on the processing

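With 2 WT libraries and 10 monocyte-like cells in 1 of them, small differences per cell could not be resolved, and macrophage-like and monocyte-like levels in WT rest on few UMIs. No called value of a member changed sign. Over all cells, the number of members called between YAP7d and WT was 0, and 1 (Ccr2) with only the 2 groups compared; leaving out single libraries gave 0 to 1. Within classes it was 1 (Ccl2 in endothelial-like cells), 0 with the Gm10709 term, 2 without a filter on low counts and 2 with the replicate block (Ccl8 in macrophage-like cells added, -1.94 and -4.11), and 0 to 1 without single libraries. Between YAP7d and YAP3d it was 1, 0 with the Gm10709 term, 2 without a filter, 0 with only the 2 groups compared, where Ccl2 in endothelial-like cells was below the filter and not tested, 0 without YAP3d replicates 3 and 4 together, an alternative chosen after seeing the data, and 0 to 2 without single libraries. The myeloid share of Ccl12 (98.9 to 99.6% in YAP7d) and Ccr2 (76.2 to 86.4%) without single libraries reached an exact permutation p of 0.0167 (Ccl12, WT replicate 2 left out, the smallest p this allows, with 1 WT library of 4 Ccl12 UMIs remaining) and 0.0429 (Ccr2, YAP3d replicate 2 left out). The cause of these changes was not tested. The number of genes called depended on the setting: across the alternatives other than left-out libraries it ran from 0 to 2741 over all cells (2184 as reported), 220 to 1630 in endothelial-like (1342), 0 to 558 in macrophage-like (107), 0 to 155 in monocyte-like (8) and 1 to 314 in NK or innate lymphoid-like cells (216), and between YAP7d and YAP3d from 114 to 2499 over all cells (1988), with 0 without YAP3d replicates 3 and 4 together. Leaving out single libraries gave 509 (without WT replicate 1) to 3179 (without YAP3d replicate 2) over all cells, with 668 without WT replicate 2, 662 to 1387 in endothelial-like, 0 to 504 in macrophage-like, 0 to 59 in monocyte-like and 11 to 304 in NK or innate lymphoid-like cells, and 860 to 3569 between YAP7d and YAP3d over all cells. Libraries with the same replicate number deviated together in some pairs and apart in others (r of -0.37 to 0.36), so the numbers were not taken to pair the samples. With the replicate block the Ccl2 difference in endothelial-like cells was 2.27 (edgeR adjusted p 0.0252), and 310 macrophage-like, 48 monocyte-like and, between YAP7d and YAP3d, 866 genes over all cells were called.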
